A study of Mus musculus with 12 samples.

Results

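The genes Lgals9, Pvr, Sirpa and Icosl encode surface or secreted proteins through which myeloid cells signal to T cells, NK cells or phagocytes. They were taken by gene name from the deposited expression table, where each name occurs on 1 row, and they make 4 of its 11669 genes. Galectin-9 (Lgals9) is a galactose-binding lectin with a pair of carbohydrate-binding domains, and among its receptors is the inhibitory receptor TIM-3 on T cells and myeloid cells. The poliovirus receptor (Pvr, also CD155) is a nectin-like molecule bound by the inhibitory receptor TIGIT, by CD96 and by the activating receptor CD226. ICOS ligand (Icosl) is a B7 family protein that costimulates T cells through ICOS. SIRP alpha (Sirpa) is itself a receptor rather than a ligand: on macrophages and granulocytes it binds CD47 and, through phosphatases such as SHP-1, restrains phagocytosis.

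The libraries come from mouse immune cells that carry the cell line name TAMC and the tissue label marrow. The series concerns a drug particle covered with engineered cancer cell membrane and aimed at CDKs, to be used with an antibody against PD-L1. Cells received NP-D@MP, NP-D@M, NP@M or PBS for 24 h, with 3 libraries in each of the 4 groups. The labels leave TAMC, NP, D, M and P undefined and name no strain, age or cell sort. They do not say that the 3 libraries of a group are separate cultures or animals, so a p-value here speaks of the spread among these libraries alone. The extraction protocol speaks of retinas, but 0 of 11 retina marker genes were found among the genes analysed here. Of 15 monocyte and macrophage markers, all 15 were present, with summed levels of 36641 to 38844 FPKM in NP-D@MP, 31305 to 41983 FPKM in NP-D@M, 2884 to 3525 FPKM in NP@M and 2926 to 4225 FPKM in PBS.

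FPKM values are reads scaled to the length of the gene and to a library size, and the authors' library size was not the number of reads in the table. The table held 15.6 to 17.3 M recovered reads per library with D and 14.4 to 16.2 M without D, while the size that the values had been divided by was 0.468 to 0.553 times those reads with D and 2.19 to 2.36 times without D. A gene with equal read shares therefore stands higher with D in the deposited FPKM. Going over to the read totals moves the log2 difference of NP-D@M and NP@M by -2.17, and that of NP-D@MP and PBS by -2.24. Each level is therefore given in FPKM as deposited and again after scaling to the recovered reads of its library, for which the name RPKM is kept here. Recovered reads are only those of the table, whose choice of genes is not stated. In these bulk libraries, fewer cells of a type and less RNA per cell cannot be told apart.

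Promoter sequences matched by symbol for 2 of the 4 genes, Lgals9 and Icosl, and are shown for these 2 only. A link between these windows and the response to D was not tested. Both run 5′ to 3′ on the gene's own strand, from 250 bases before to 50 bases after the start, and are from RefSeq on GRCm38.p6. In Lgals9 (chr11:78984875-78985174, minus strand) the capitals mark matches to the spaced repeat of interferon response elements, which is GAAA, any 2 bases and GAAA again. Both matches lie on the other strand, so they read TTTC, 2 bases and TTTC. In Icosl (chr10:78069118-78069417, plus strand) the capitals mark the GC box GGGCGG.
Lgals9: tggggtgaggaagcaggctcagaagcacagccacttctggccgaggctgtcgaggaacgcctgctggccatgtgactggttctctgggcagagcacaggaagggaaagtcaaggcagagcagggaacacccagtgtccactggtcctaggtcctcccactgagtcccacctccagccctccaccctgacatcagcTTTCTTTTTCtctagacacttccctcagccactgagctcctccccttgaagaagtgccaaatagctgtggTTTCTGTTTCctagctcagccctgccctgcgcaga
Icosl: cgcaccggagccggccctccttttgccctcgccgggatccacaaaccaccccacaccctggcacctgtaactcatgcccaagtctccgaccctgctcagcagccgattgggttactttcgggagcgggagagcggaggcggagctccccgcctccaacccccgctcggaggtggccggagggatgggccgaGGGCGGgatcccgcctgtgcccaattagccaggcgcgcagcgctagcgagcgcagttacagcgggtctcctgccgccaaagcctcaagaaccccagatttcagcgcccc
The Lgals9 window held 2 such repeats, beginning 55 bases upstream and 15 bases downstream of the start, and 4 CpG dinucleotides. At least 1 repeat was present in 3.49% and at least 2 in 0.252% of 27025 promoter windows of the same length, searched on both strands. The Icosl window held 0 of these repeats, 26 CpG dinucleotides against a median of 7 over all windows, 1 GC box (at least 1 in 35.9% of windows) and 2 CCAAT boxes (at least 2 in 12.2% of windows). The letters GAGGAA, a core bound by the myeloid factor PU.1, were found 2 times in Lgals9 (at least 2 in 4.84% of windows) and 0 times in Icosl. TATAAA (14.2% of windows), the AP-1 letters TGANTCA (7.93%) and the E-box CACGTG (7.24%) were in neither window. These are matches of letters and show no binding.

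The 4 genes changed places in order of level between libraries with D and those without. FPKM is per length, so levels of different genes can be set side by side. In each of the 6 libraries with D the order was Lgals9, Sirpa, Pvr and then Icosl. In each of the 6 libraries without D, Sirpa stood highest and Lgals9 second, and Pvr and Icosl were close together at the bottom. In NP@M the Pvr range of 3.56 to 4.10 FPKM overlapped the Icosl range of 3.97 to 4.57 FPKM. This order does not depend on the scaling between libraries.

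**Figure D1:**
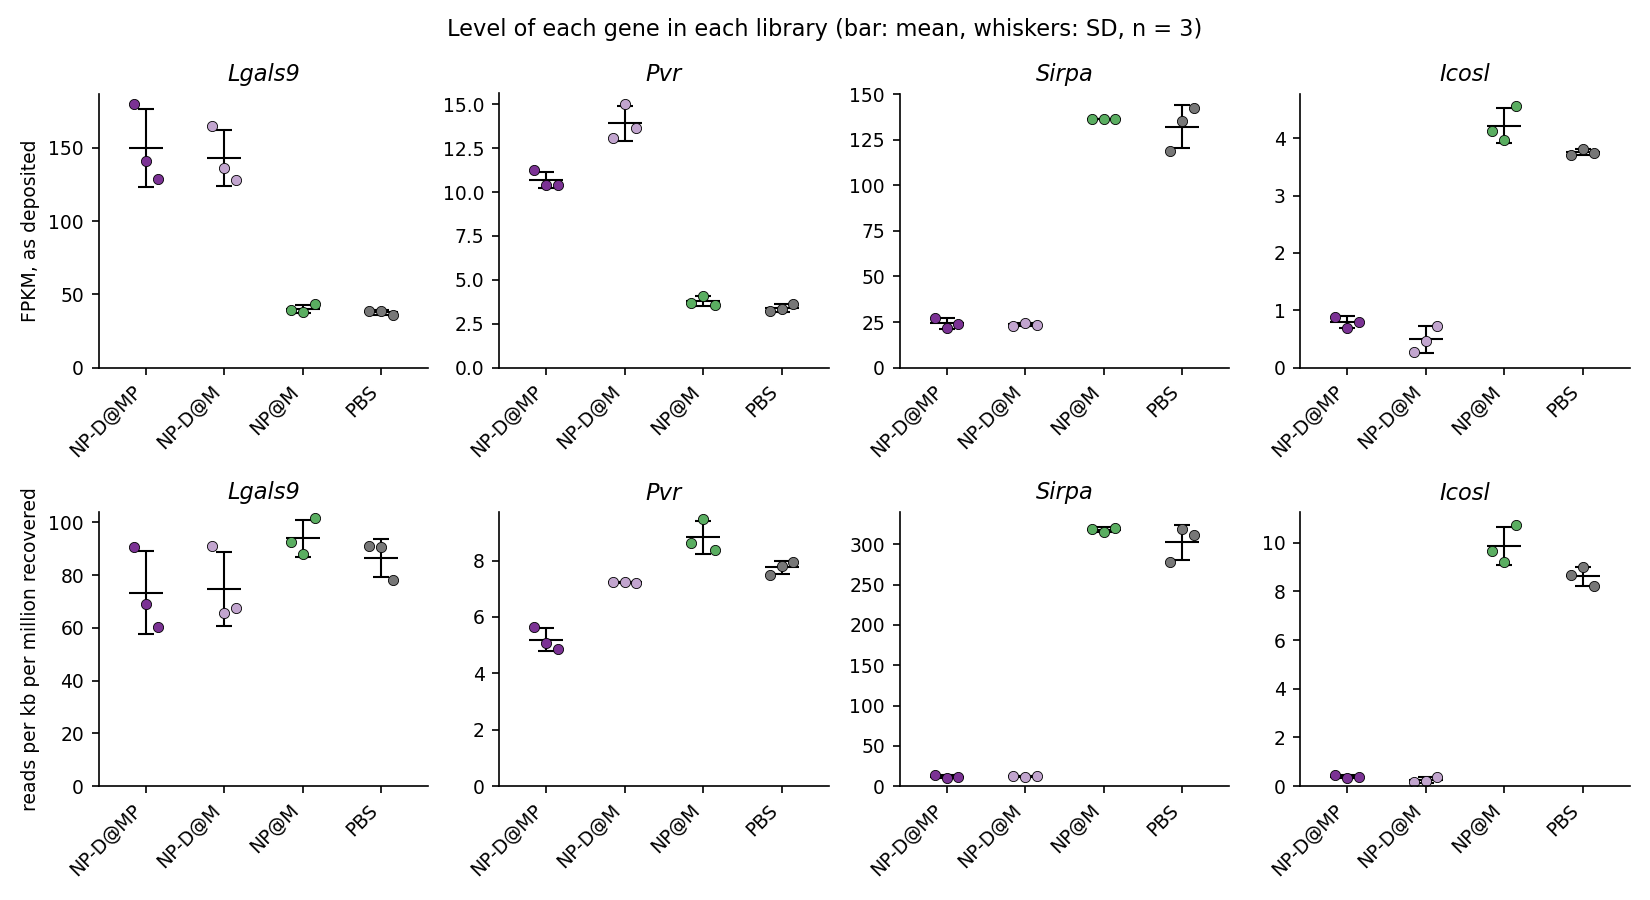
Levels of Lgals9, Pvr, Sirpa and Icosl in each library, with groups on the horizontal axis; the upper row gives FPKM as deposited and the lower row RPKM over the recovered reads, both on linear axes from 0. Points are libraries, horizontal bars group means and whiskers SD (n = 3); Sirpa and Icosl stand lower with D in both rows, whereas Lgals9 and Pvr stand higher with D in the upper row only.

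Galectin-9 transcripts were at 180, 141 and 129 FPKM in NP-D@MP, at 165, 136 and 128 FPKM in NP-D@M, at 39.4, 37.9 and 43.3 FPKM in NP@M and at 38.9, 38.4 and 35.7 FPKM in PBS. All libraries with D were above all libraries without D, and replicate 1 was the highest in both groups with D. The Lgals9 reads behind these values were 2168 to 3361 in NP-D@MP, 2285 to 3040 in NP-D@M, 2852 to 3480 in NP@M and 2412 to 3129 in PBS, so the read numbers themselves overlap. RPKM averaged 73.3 ± 15.7 in NP-D@MP, 74.8 ± 14.1 in NP-D@M, 94.0 ± 7.08 in NP@M and 86.5 ± 7.26 in PBS (SD, n = 3 each). Ranked among the genes of its own library, Lgals9 lay at the percentile 93.9 to 95.7 in NP-D@MP, 94.5 to 95.4 in NP-D@M, 95.2 to 96.0 in NP@M and 94.9 to 95.7 in PBS, ranges that overlap throughout. Its gene (ENSMUSG00000001123) lies on the minus strand of chromosome 11 from 78962974 to 78984946 (GRCm38), with 11 exons in its longest coding transcript and no other annotated gene overlapping it.

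The poliovirus receptor gene Pvr had 11.2, 10.4 and 10.4 FPKM in NP-D@MP, 13.06, 15.02 and 13.66 FPKM in NP-D@M, 3.67, 4.10 and 3.56 FPKM in NP@M and 3.21, 3.32 and 3.63 FPKM in PBS. As deposited the groups with D lay above those without D, and all NP-D@MP libraries lay below all NP-D@M libraries. In RPKM, the order of the groups was another one, with 5.20 ± 0.415 in NP-D@MP, 7.23 ± 0.0217 in NP-D@M, 8.82 ± 0.590 in NP@M and 7.76 ± 0.234 in PBS (SD, n = 3 each). The percentile of Pvr within its library was 77.1 to 78.8 in NP-D@MP, 80.0 to 81.0 in NP-D@M, 62.1 to 65.9 in NP@M and 59.8 to 63.0 in PBS. Pvr thus passed other genes of the table in rank with D, while its share of the reads did not rise. Pvr (ENSMUSG00000040511, chromosome 7 from 19903578 to 19921160, minus strand) overlaps 2 annotated genes on the opposite strand, a processed pseudogene and the antisense gene Gm16251. The labels do not say that counting used strand. Of the 6049 different runs of 50 bases in the GENCODE M21 transcripts of Pvr, 0 occurred in a transcript of another gene, read on either strand.

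Sirpa had 27.3, 21.6 and 23.7 FPKM in NP-D@MP, 22.97, 24.67 and 23.64 FPKM in NP-D@M, 136.4, 136.2 and 136.3 FPKM in NP@M and 119, 135 and 142 FPKM in PBS. The groups with D lay far below those without D and overlapped each other. The reads fell to 866 to 1173 in NP-D@MP and 950 to 1030 in NP-D@M, against 23527 to 25190 in NP@M and 20095 to 25350 in PBS. In RPKM, Sirpa averaged 11.8 ± 1.72 in NP-D@MP, 12.4 ± 0.414 in NP-D@M, 318 ± 2.82 in NP@M and 303 ± 21.7 in PBS (SD, n = 3 each). Its percentile within the library was 83.3 to 86.2 in NP-D@MP, 84.5 to 85.0 in NP-D@M, 98.7 to 99.2 in NP@M and 98.3 to 99.1 in PBS. Sirpa (ENSMUSG00000037902) spans 39394 bases of chromosome 2 from 129592835 to 129632228 on the plus strand and has paralogs in the Sirpb1 genes. Of the 5223 different runs of 50 bases in its GENCODE M21 transcripts, 0 occurred in a transcript of another gene.

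Icosl, the least abundant of the 4 genes with D, had 0.891, 0.691 and 0.798 FPKM in NP-D@MP, 0.275, 0.469 and 0.732 FPKM in NP-D@M, 4.12, 3.97 and 4.57 FPKM in NP@M and 3.71, 3.82 and 3.75 FPKM in PBS. The libraries with D all lay below those without D, and rested on 26 to 36 reads in NP-D@MP and 11 to 30 reads in NP-D@M, against 646 to 794 reads in NP@M and 548 to 673 reads in PBS. In RPKM, Icosl averaged 0.387 ± 0.0575 in NP-D@MP, 0.255 ± 0.119 in NP-D@M, 9.86 ± 0.787 in NP@M and 8.63 ± 0.396 in PBS (SD, n = 3 each). The percentile within the library was 45.1 to 49.5 in NP-D@MP, 32.7 to 46.5 in NP-D@M, 65.2 to 67.7 in NP@M and 62.9 to 63.8 in PBS. Icosl (ENSMUSG00000000732) lies on the plus strand of chromosome 10 from 78069302 to 78083913, with 7 exons in its longest coding transcript.

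NP-D@M differs from NP@M by D, and the first comparison addresses the effect of D on cells given a membrane-covered particle. As deposited, Lgals9 rose 3.56-fold and Pvr 3.68-fold in mean FPKM, while Sirpa was 5.74-fold and Icosl 8.58-fold lower. On the log2(FPKM + 1) scale of the test the changes were 1.80 for Lgals9 (SE 0.18, adjusted p = 3.66e-06 by limma), 1.64 for Pvr (SE 0.14, adjusted p = 9.67e-07), -2.47 for Sirpa (SE 0.16, adjusted p = 1.76e-07) and -1.82 for Icosl (SE 0.14, adjusted p = 7.58e-07), each in 3 of 3 libraries. Of all 8615 genes tested, 45.2% were called higher and 46.0% lower in this comparison, and groups did not overlap for 46.3% on the higher and 46.7% on the lower side, so a call by itself sets none of the 4 genes apart. By size, 4.97% of the tested genes had a lower fold change than Sirpa and 13.7% a lower one than Icosl, and 21.4% had a higher one than Lgals9 and 24.0% a higher one than Pvr. Both falls were larger in RPKM, 25.8-fold for Sirpa (log2 fold change -4.58, SE 0.15, adjusted p = 1.75e-09) and 38.7-fold for Icosl (-3.12, SE 0.13, adjusted p = 4.19e-09), where 61.7% of genes were called lower and 9.12% higher, and 63.9% lay lower without overlap. There 1.74% of the tested genes had a lower fold change than Sirpa and 15.2% a lower one than Icosl. Set against the median of all tested genes, the fall of Icosl on this log2 scale was -1.97 as deposited and -1.65 in RPKM. The pseudocount of 1 understates the fall of Icosl in RPKM, which voom on the recovered reads put at -5.33. This difference from the median and the 15.2% above therefore depend on the pseudocount. Lgals9 and Pvr turned to -0.34 (95% interval -0.78 to 0.10, adjusted p = 0.148) and -0.25 (-0.52 to 0.02, adjusted p = 0.0852) in RPKM, and neither passed the test. Over all alternatives the adjusted p ran up to 0.246 for Lgals9 and 0.104 for Pvr, and no higher than 1.80e-05 for Sirpa and 5.52e-05 for Icosl.

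**Figure D2:**
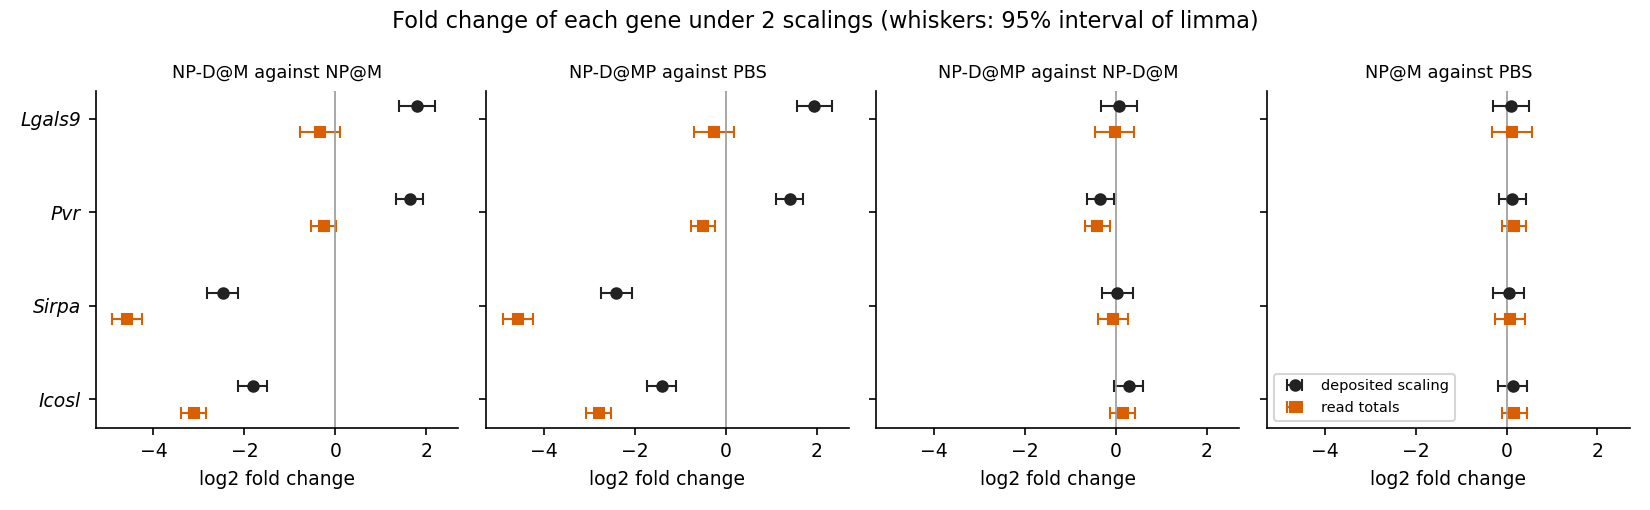
Log2 fold change of each gene in 4 comparisons, with circles for the deposited scaling, squares for the read totals and whiskers for the 95% interval of limma. Sirpa and Icosl lie left of 0 under both scalings where D is set against no D, Lgals9 and Pvr change side, and most intervals in the remaining comparisons include 0.

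The comparison of NP-D@MP with PBS sets the particle with D and P against the vehicle and shares no library with the one above. Sirpa was 5.46-fold lower in FPKM (log2 fold change -2.40, SE 0.16, adjusted p = 2.07e-07 by limma) and Icosl 4.74-fold lower (-1.41, SE 0.14, adjusted p = 4.61e-06). Lgals9 rose 3.98-fold (1.95, SE 0.18, adjusted p = 2.02e-06) and Pvr 3.15-fold (1.41, SE 0.14, adjusted p = 2.75e-06) as deposited. Calls over all tested genes were 45.7% higher and 45.8% lower, and 44.7% did not overlap in each of these directions. In RPKM, Sirpa stood at -4.57 (adjusted p = 1.92e-09) and Icosl at -2.80 (adjusted p = 7.66e-09), Lgals9 turned to -0.25 (95% interval -0.69 to 0.18, adjusted p = 0.272), and Pvr turned to a fall of -0.50 that passed the test (SE 0.12, adjusted p = 0.00324). There 62.4% of the tested genes were called lower and 9.01% higher, and 62.8% lay lower without overlap. Over all alternatives the adjusted p in this comparison ran up to 0.432 for Lgals9 and 0.0046 for Pvr. Both of these came with a negative change, -0.19 by quantile normalization for Lgals9 and -0.58 by voom for Pvr. The 0.0046 is thus a called fall of Pvr and not a ceiling for its rise.

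The comparison of NP-D@MP with NP-D@M asks what P changes when D is present, and none of the 4 genes passed its test. Pvr came closest, with a log2 fold change of -0.35 (95% interval -0.65 to -0.05, unadjusted p = 0.0247 and adjusted p = 0.823 by limma), and all 3 NP-D@MP libraries lay below all 3 NP-D@M libraries under the deposited scaling and in RPKM. Groups did not overlap and were lower in NP-D@MP for 6.14% of all tested genes as deposited and 9.39% in RPKM. Icosl averaged 0.793 ± 0.1003 FPKM in NP-D@MP and 0.492 ± 0.229 FPKM in NP-D@M (SD, n = 3 each), a log2 fold change of 0.27 (95% interval -0.04 to 0.59), with overlapping groups. The intervals for Lgals9 (-0.33 to 0.46) and Sirpa (-0.32 to 0.36) leave room for changes of either sign. By limma, 0 of 8615 genes were called, 0.0% in either direction, with 428 at an unadjusted p under 0.05, and voom on the recovered reads called 1.

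The comparison of NP@M with PBS tests the covered particle without D. The log2 fold changes were 0.09 for Lgals9 (95% interval -0.30 to 0.49), 0.12 for Pvr (-0.17 to 0.42), 0.05 for Sirpa (-0.29 to 0.39) and 0.13 for Icosl (-0.19 to 0.45), each with an adjusted p of 1 by limma. As deposited Icosl alone did not overlap, at 3.97 to 4.57 FPKM in NP@M and 3.71 to 3.82 FPKM in PBS, as was so for 1.74% of tested genes in this direction. In RPKM both Icosl and Pvr lay higher without overlap (2.36% of genes), and 0.0116% of genes were called higher and 0.0% lower under either scaling. A library in each of these groups was unlike its fellows: 9.11% of the table's genes were listed at 0 in NP@M replicate 2 and 9.31% in PBS replicate 3, where the remaining 4 without D had 2.65% to 2.96%. In the 6 libraries with D this share was 8.94% to 13.4%, and its part in the results was not tested. Without NP@M replicate 2 and PBS replicate 3, the log2 fold changes in NP-D@M against NP@M were 1.76 for Lgals9, 1.69 for Pvr, -2.47 for Sirpa and -1.85 for Icosl.

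Plain FPKM ratios of 2 genes within a library do not change with the scaling and carry the comparison where the levels cannot. The FPKM ratio of Lgals9 to Sirpa was 5.43 to 6.58 in NP-D@MP and 5.42 to 7.17 in NP-D@M, against 0.279 to 0.317 in NP@M and 0.251 to 0.327 in PBS. Lgals9 thus had the higher level of the pair in every library with D and the lower one in every library without D. The ratio of Pvr to Sirpa was 0.411 to 0.482 in NP-D@MP and 0.569 to 0.609 in NP-D@M, against 0.0261 to 0.0301 in NP@M and 0.0245 to 0.0269 in PBS. The ratio of Pvr to Icosl stood at 12.6 to 15.1 in NP-D@MP and 18.7 to 47.4 in NP-D@M, against 0.779 to 1.03 in NP@M and 0.865 to 0.968 in PBS. Lgals9 to Icosl was 162 to 205 in NP-D@MP and 175 to 597 in NP-D@M, against 9.48 to 9.57 in NP@M and 9.52 to 10.49 in PBS. These 4 ratios separate the libraries with D from those without D. In NP-D@M against NP@M as deposited, 46.3% of all tested genes lay higher and 46.7% lower without overlap. Such a separation by itself therefore sets none of these pairs apart, and the share of other gene pairs that separate was not counted.

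With a pseudocount of 1, the mean log2 ratio with D minus that without D was 4.31 for Lgals9 over Sirpa, 3.96 for Pvr over Sirpa, 3.49 for Lgals9 over Icosl and 3.14 for Pvr over Icosl. Each of these gave p = 0.00216 in a 2-sided exact permutation test over 6 libraries against 6, the smallest p this design allows, and p = 0.0026 after adjustment over the 6 pairs tested. The test pools NP-D@MP with NP-D@M and NP@M with PBS, as if each side were a single group. The differences with Icosl moved in size with the settings: Lgals9 over Icosl was 4.43 with a pseudocount of 0.1 and 2.66 in RPKM, and Pvr over Icosl 4.27 and 2.58. Within the pair that fell, the plain FPKM ratio of Sirpa to Icosl was 29.7 to 31.3 in NP-D@MP and 32.3 to 83.4 in NP-D@M, against 29.8 to 34.3 in NP@M and 32.1 to 37.9 in PBS, ranges that overlap. Its log2 difference was -0.82 with a pseudocount of 1 (exact permutation, adjusted p = 0.0026) and -1.62 in RPKM, and turned to 0.048 with a pseudocount of 0.1 (adjusted p = 0.844), so it rests on the pseudocount. Within the pair that rose as deposited, Lgals9 over Pvr differed by 0.35 (exact permutation, adjusted p = 0.0325), and by 0.16 with a pseudocount of 0.1 (adjusted p = 0.358) and 0.081 in RPKM (adjusted p = 0.552).

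**Figure D3:**
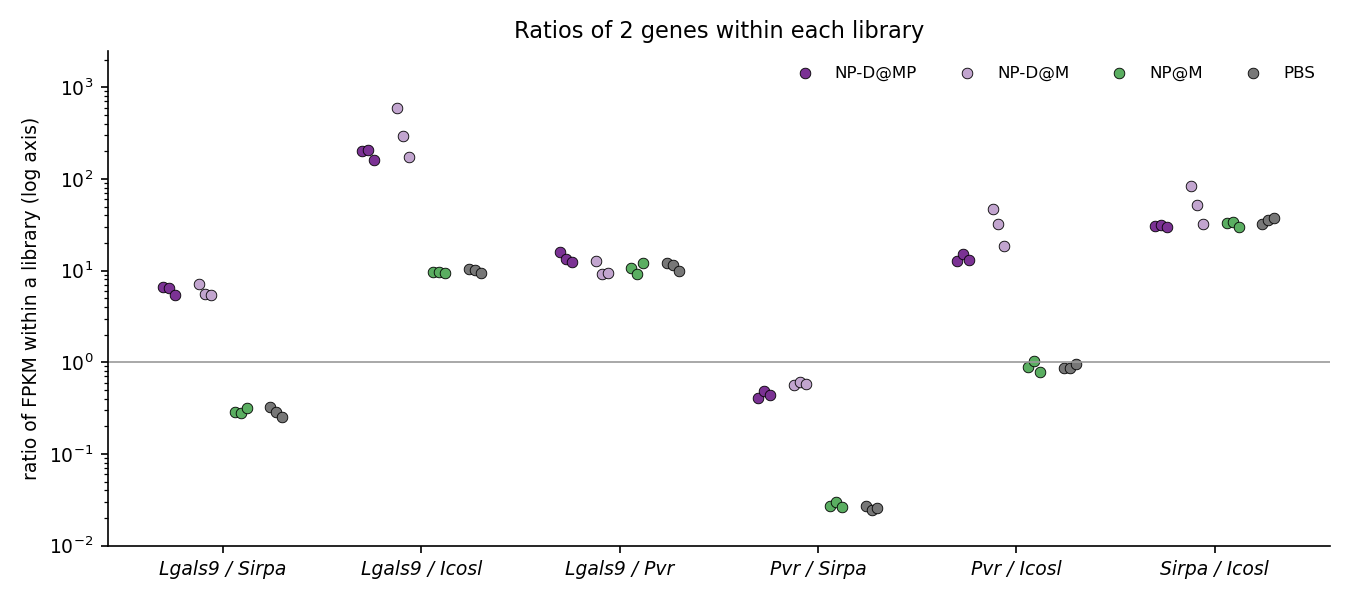
Ratio of the FPKM of 2 genes within each library for the 6 pairs, on a log axis, with 1 point per library and colours for the groups. Lgals9 and Pvr over Sirpa or Icosl separate libraries with D (left in each set) from those without D, while Lgals9 over Pvr and Sirpa over Icosl overlap.

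The 4 genes were counted in lists together with their binding partners and relatives, first in NP-D@M against NP@M. Lgals9 is in the galectin list and in the galectin-9 and TIM-3 axis. Pvr is in the nectin and TIGIT axis, Sirpa in the CD47 and SIRP axis and Icosl in the B7 family. The counts of these lists therefore include the values of the 4 genes themselves. Over all tested genes, 45.2% were called higher and 46.0% lower as deposited (median log2 fold change 0.16), and 9.12% higher and 61.7% lower in RPKM (median -1.47). With at most 10 tested genes in a list, counts such as 5 higher and 3 lower of 8 lie near those shares. Other lists lie further from them, and whether the count of a list differs from the shares was not tested. Numbers in brackets after a log2 fold change are the same quantity in RPKM. In the CD47 and SIRP axis, 5 of 8 tested genes rose and 3 fell (median 0.94), and in RPKM 0 rose and 6 fell (median -1.03). Ptpn6, which encodes the phosphatase SHP-1 that SIRP alpha recruits, fell with Sirpa, at -3.47 (-5.37 in RPKM), and Thbs1, encoding the CD47 ligand thrombospondin, at -2.75 (-4.90). Cd47 rose by 1.41 as deposited, at 154 to 165 FPKM in NP-D@M and 49.9 to 80.9 FPKM in NP@M, and turned to -0.73 in RPKM. The SIRP beta paralog Sirpb1c rose by 1.65, and stood at 0.31 in RPKM (adjusted p = 0.129). Skap2, an adaptor in myeloid adhesion, rose by 1.32 as deposited and turned to a fall of -0.65 in RPKM.

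In the galectin-9 and TIM-3 axis, 3 of 3 tested genes, Lgals9 among them, rose as deposited, and 0 passed in RPKM. Over all tested genes, calls were 45.2% higher and 46.0% lower as deposited, and 9.12% and 61.7% in RPKM. Havcr2, which encodes TIM-3, was at 32.9 to 42.5 FPKM in NP-D@MP, 30.1 to 43.2 FPKM in NP-D@M, 4.73 to 7.22 FPKM in NP@M and 4.31 to 9.93 FPKM in PBS, a log2 fold change of 2.59 in NP-D@M against NP@M (0.59 in RPKM, adjusted p = 0.0739). Ceacam1, an adhesion molecule that also binds TIM-3, rose by 2.09 (0.13 in RPKM, adjusted p = 0.575). Of 5 tested genes in the galectin list, 4 rose and 1 fell. The list counts Lgals3bp, which encodes a galectin-3 binding protein rather than a galectin, at 3.50 (1.34 in RPKM). Lgals1 stood at 3.97 (1.81 in RPKM, adjusted p = 0.0581) and Lgals3 at 2.33 (0.16 in RPKM, adjusted p = 0.818). In RPKM, 1 of the 5 rose, which was Lgals3bp, and 1 fell. Lgals9 lay below Lgals3bp, Lgals1 and Lgals3 under both scalings, at 1.80 as deposited and -0.34 in RPKM. Lgals8 fell by 0.78 as deposited.

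In the nectin and TIGIT axis, 2 of 3 tested genes, Pvr among them, rose and 1 fell, and in RPKM 1 rose and 1 fell. Shares over all tested genes were 45.2% higher and 46.0% lower as deposited, and 9.12% and 61.7% in RPKM. The adhesion molecule gene Cadm1 rose by 3.17 (1.30 in RPKM), and Nectin2, encoding another ligand of the Pvr receptors, fell by 1.16 as deposited (log2 fold change -2.21 in RPKM), a call that quantile normalization ended (-0.61, adjusted p = 0.0559). In the B7 family, 2 of 6 tested genes rose, 2 fell and 2 did not pass (median -0.01), and in RPKM 0 rose and 5 fell (median -1.90). Icosl was the lowest there as deposited and Pdcd1lg2, encoding PD-L2, the next at -1.68 (-3.32 in RPKM). Pdcd1lg2 was the lower of the pair in RPKM only on this scale with a pseudocount of 1. With voom Icosl stood at -5.33, while Pdcd1lg2 went no lower than -4.34 under any alternative. Cd80, a ligand of CD28 and CTLA-4, rose by 0.72 and Cd276 by 0.39 as deposited, and both turned to falls in RPKM, at -1.27 and -1.13. The rise of Cd80 was not called after quantile normalization (0.073, adjusted p = 0.805), and that of Cd276 was lost without NP-D@M replicate 2 (0.36, adjusted p = 0.0563) or replicate 3 (0.37, adjusted p = 0.0523). Cd28 was the only receptor of this family tested, at 1.35 (-0.02 in RPKM, adjusted p = 0.969).

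Of 4 tested costimulatory genes of the TNF family, 3 fell and 1 rose as deposited, and in RPKM 3 fell and 0 rose. Beside this and the next 2 lists, 45.2% of all tested genes were called higher and 46.0% lower as deposited. In RPKM these shares were 9.12% and 61.7%. Tnfsf14, encoding LIGHT, was at -3.16 (-4.42 in RPKM), Tnfsf9, encoding the ligand of 4-1BB, at -1.08 (-2.12), Tnfsf8, encoding the ligand of CD30, at -0.79 (-1.86), and Cd40 at 1.41 (0.33 in RPKM, adjusted p = 0.163). Quantile normalization ended the calls of Tnfsf9 (-0.62, adjusted p = 0.127) and Tnfsf8 (-0.17, adjusted p = 0.507). Among 9 tested inhibitory receptors of myeloid cells, 6 rose and 2 fell, and in RPKM 1 rose and 5 fell. Siglece, encoding a sialic acid receptor, was at -1.93 (-3.84 in RPKM), the immunoglobulin-like receptor gene Lilrb4a at -1.58 (-2.93), the lipid receptor gene Cd300lf at 2.71 (0.58) and Cd22, encoding a further sialic acid receptor, at 2.20 (0.33, adjusted p = 0.21). Of 10 tested non-classical MHC genes and NK cell ligands, 9 rose and 0 fell as deposited, against 5 and 2 in RPKM, with H2-M3 at 3.02 (1.06 in RPKM), Cd1d1 at 2.74 (0.99) and the NKG2D ligand genes Raet1e and Raet1d, close paralogs between which counting could split reads, at 2.16 (1.02) and 1.71 (0.63).

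In NP-D@MP against PBS the median log2 fold change over all tested genes was 0.13 as deposited and -1.48 in RPKM, beside calls of 45.7% higher and 45.8% lower as deposited and of 9.01% and 62.4% in RPKM. There 4 of 8 genes of the CD47 and SIRP axis rose and 3 fell (median 0.34), and in RPKM 0 rose and 6 fell (median -1.70). All 3 tested genes of the galectin-9 and TIM-3 axis rose as deposited, and 0 of 3 passed in RPKM. Of the 5 genes of the galectin list, Lgals3bp included, 4 rose and 1 fell. In RPKM 1 rose, which was Lgals3bp, and 1 fell. In the B7 family 2 of 6 rose and 3 fell (median -0.24), and in RPKM 0 rose and 6 fell (median -2.07). The non-classical MHC and NK ligand genes gave 9 of 10 higher, and in RPKM 3 higher and 1 lower.

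**Figure D4:**
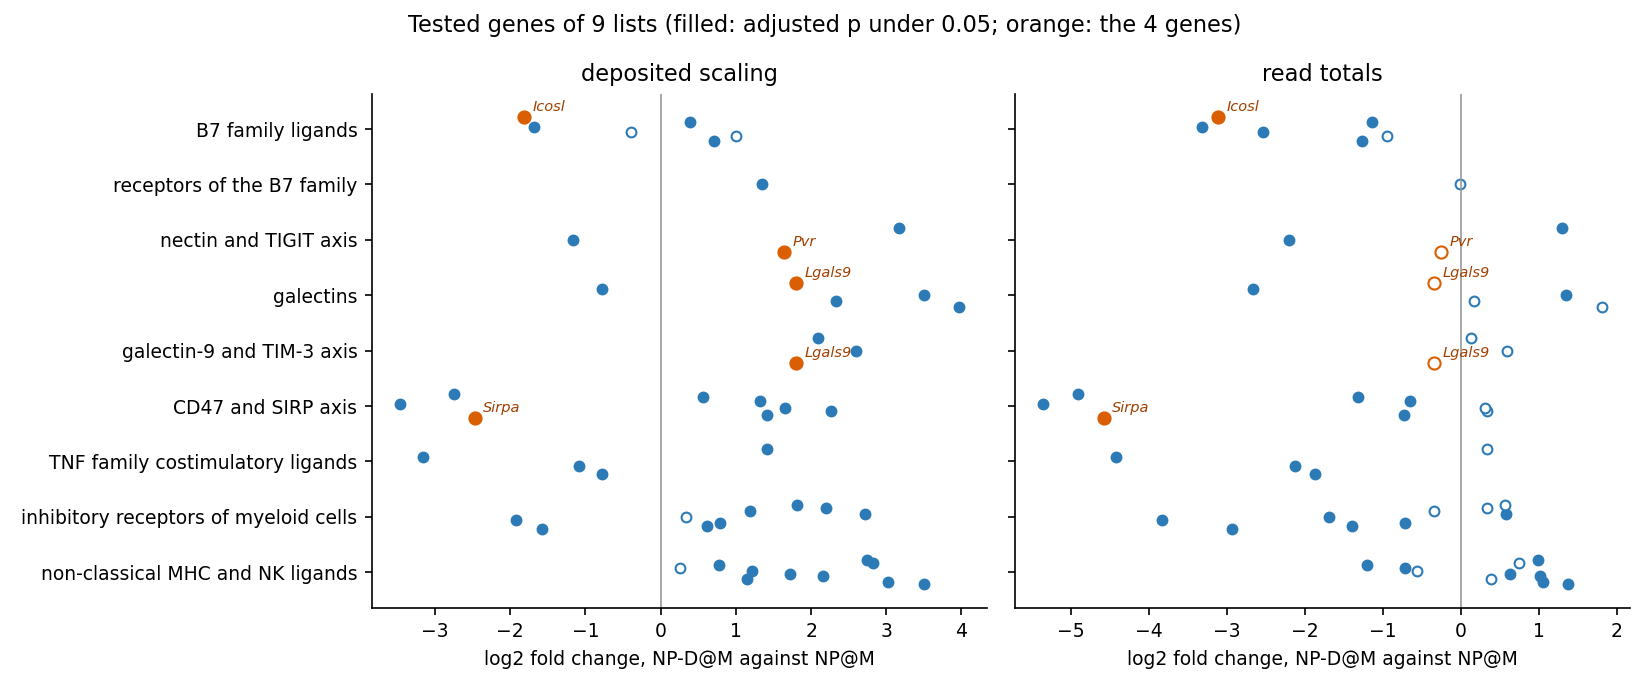
Log2 fold change in NP-D@M against NP@M of the tested genes of 9 lists, with the deposited scaling on the left and the read totals on the right; each point is a gene, filled where the adjusted p was under 0.05, with Lgals9, Pvr, Sirpa and Icosl in orange. Sirpa and Icosl stay among the lowest points of their lists in both panels, and most other genes move left in the right panel.

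Markers of cell types moved with D as well, and their part in these results was not tested. In RPKM, the sum over 15 monocyte and macrophage markers was 18121 to 18478 in NP-D@MP and 16506 to 20258 in NP-D@M, against 6675 to 8284 in NP@M and 6894 to 9248 in PBS. A sum can be carried by its most abundant genes, and single markers may go another way. The sum over 12 neutrophil and granulocyte markers was 1164 to 1768 in NP-D@MP and 822 to 1176 in NP-D@M, against 1572 to 3226 in NP@M and 2743 to 3799 in PBS. As deposited this sum was instead higher with D in both comparisons, at 2486 to 3627 FPKM in NP-D@MP against 1253 to 1625 FPKM in PBS, and at 1485 to 2230 FPKM in NP-D@M against 679 to 1372 FPKM in NP@M. Over 8 dendritic cell markers it was 237 to 305 in NP-D@MP and 306 to 345 in NP-D@M, against 230 to 275 in NP@M and 213 to 231 in PBS, with 1 marker at 0 throughout NP-D@MP. Over 4 erythroid and megakaryocyte markers it was 12044 to 14457 in NP-D@MP and 10754 to 12594 in NP-D@M, against 1120 to 2808 in NP@M and 1138 to 2831 in PBS. T and NK cell markers (2 of 10 analysed) summed to at most 1.82 and the B cell marker (1 of 7) to at most 0.313 in RPKM in any group. Colon epithelium markers (2 of 10) summed to 14.6 to 15.9 in NP-D@MP, 10.4 to 17.9 in NP-D@M, 16.3 to 21.3 in NP@M and 16.8 to 20.1 in PBS, and stromal and endothelial markers (4 of 8) to 5.11 to 5.80 in NP-D@MP, 3.98 to 5.23 in NP-D@M, 8.96 to 13.0 in NP@M and 10.05 to 17.13 in PBS. As deposited both of these sums were higher with D: colon epithelium markers at 29.9 to 32.9 FPKM in NP-D@MP and 18.8 to 33.9 FPKM in NP-D@M, against 7.06 to 9.08 FPKM in NP@M and 7.13 to 9.20 FPKM in PBS. Stromal and endothelial markers stood at 10.9 to 11.5 FPKM in NP-D@MP against 4.30 to 7.83 FPKM in PBS, and at 7.19 to 10.8 FPKM in NP-D@M against 3.82 to 5.63 FPKM in NP@M. Dendritic cell markers summed to 486 to 605 FPKM in NP-D@MP and 553 to 715 FPKM in NP-D@M, against 98.0 to 119 FPKM in NP@M and 91.3 to 106 FPKM in PBS. Erythroid and megakaryocyte markers summed to 25737 to 28667 FPKM in NP-D@MP and 20396 to 26100 FPKM in NP-D@M, against 484 to 1198 FPKM in NP@M and 520 to 1211 FPKM in PBS. Dendritic cell and erythroid and megakaryocyte sums were thus higher in NP-D@M than NP@M and in NP-D@MP than PBS under both scalings. In RPKM, however, the dendritic cell range of NP-D@MP overlapped that of NP@M.

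The genes whose pattern was most like that of each gene were ranked by Pearson's r of log2(FPKM + 1) over the 12 libraries, as a description only, since the step between libraries with and without D is shared by most genes of the table. For Sirpa they were Ptafr, Rad21 and Ets2, with r of 0.999, 0.998 and 0.997, and in RPKM the values for these genes were 0.999, 0.999 and 0.998. For Icosl they were Sash3, Sbno2 and Arid3a, with r of 0.995, 0.994 and 0.992, and 0.999, 0.998 and 0.997 in RPKM. For Pvr they were Tmem62, Rhbdd1 and Cat, at 0.994, 0.994 and 0.993, and 0.723, 0.931 and 0.941 in RPKM. For Lgals9 they were Nbdy, Gps1 and Plp2, at 0.996, 0.995 and 0.995, but -0.36, 0.814 and 0.103 in RPKM, so the likeness to Nbdy and Plp2 came with the scaling. Sirpa and Icosl had an r of 0.985 with each other as deposited and 0.997 in RPKM.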

How the data were processed

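RNA was sequenced from 12 libraries, 3 in each of 4 groups taken from the treatment labels. Per the labels' protocols, total RNA went through an Illumina TruSeq kit. Bowtie 0.12.2 and the build mm8 are named, without their role, in the submitters' processing notes. The authors deposited 1 table of FPKM values, a unit read from the values, since the file headers do not name it. Value times gene length was within 0.05 of a whole multiple of 1 step per library for 100% of the values, so reads were recovered. Gene IDs matched GENCODE M21 on GRCm38 for 11659 of 11669 genes, with equal coordinates for 11189, and positions are given on that build.

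The test covered the 8615 genes that reached 1 FPKM in 3 or more libraries, among them all 4 members. Log2(FPKM + 1) was fitted over the 12 libraries with limma 3.58.1 (R 4.3.3), with 4 group means and its trend and robust options, 2-sided, with Benjamini-Hochberg adjustment over all tested genes of a comparison and a threshold of 0.05. The pseudocount understates changes of low genes such as Icosl. The limma step was run on simulated reads with changed genes in NP-D@M alone and values scaled to the simulated totals. Such data lack the scaling difference of the deposited values, so the run does not bear on it. Ratios, counts and plots used numpy 2.4.6, pandas 2.3.3 and scipy 1.17.1 under Python 3.11.15, and matplotlib 3.10.9.

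Alternatives were the read totals, quantile normalization, equal medians, no filter, a filter of 5 in 3 libraries, a pseudocount of 0.1, no trend, only the 6 libraries compared, limma-voom on recovered reads, and leaving out libraries. The ratios in RPKM were added after seeing the data. Members and lists were chosen with earlier results of these data known. Named were the 4 members, up to 4 genes per list by adjusted p in NP-D@M against NP@M, Cd47 and Havcr2, and the 3 genes of most similar pattern with a mean of at least 5 FPKM. Thbs1, Cd47's ligand, and Lgals8 were named after their values were seen. Intervals cover only the spread between libraries, and without molecular identifiers reads may repeat a molecule.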

Additional observations from a re-analysis of the deposited data

How the results depend on the processing

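Sirpa and Icosl stayed lower and called in both comparisons of D with no D under every alternative that gave them a value, and the filter of 5 left Icosl without one. Lgals9 turned in NP-D@M against NP@M to -0.34 with the read totals, -0.29 with quantile normalization and -0.34 with voom, and in NP-D@MP against PBS to -0.25, -0.19 and -0.26. Pvr turned to -0.25 with the read totals and -0.29 with voom in the first of these, and to -0.50 and -0.58 in the second. These alternatives carry another scaling by construction. In NP-D@MP against NP-D@M, where none was called, Lgals9 stood at -0.033, -0.067 and -0.033 and Sirpa at -0.068, -0.043 and -0.074 under read totals, quantile normalization and voom, with Sirpa at -0.0075 for equal medians. Leaving out 1 library gave -0.074 to 0.17 for Lgals9 and -0.065 to 0.097 for Sirpa there, with Lgals9 at -0.012 without NP-D@M replicate 3 and -0.074 without NP-D@MP replicate 1, and Sirpa at -0.0014 without NP-D@M replicate 1 and -0.065 without NP-D@MP replicate 1. In NP@M against PBS it gave -0.026 (without PBS replicate 1) to 0.10 for Sirpa.

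Numbers of genes called were 7855 in NP-D@M against NP@M and 7882 in NP-D@MP against PBS, and 4422 and 4447 with the filter of 5, which tests fewer genes. In NP-D@MP against NP-D@M they were 0, but 6 with equal medians, 8 without a filter, 2 with a pseudocount of 0.1, 1 with voom, 17 without both libraries that stood apart and 0 to 4 with 1 library left out (4 without NP-D@MP replicate 2). In NP@M against PBS the single call became 0 with quantile normalization, equal medians, no filter, the filter of 5, a pseudocount of 0.1, no trend, the 6 libraries compared, voom and without both libraries, and 0 with any 1 library left out except NP@M replicate 1, which left it at 1. The cause was not tested.

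The ratio of Lgals9 over Pvr lost its call with a pseudocount of 0.1 (0.16), in RPKM (0.081) and without both libraries (0.27), and leaving out 1 library gave 0.27 to 0.42, with the call lost without PBS replicate 3, NP@M replicate 2, NP-D@M replicate 1 or any of the 3 NP-D@MP libraries. Sirpa over Icosl turned to 0.048 with a pseudocount of 0.1. With NP-D@M and NP@M alone, 3 libraries against 3, an exact permutation test cannot pass, and the ratios were 4.27 for Lgals9 over Sirpa, 3.62 for Lgals9 over Icosl, 0.16 for Lgals9 over Pvr, 4.11 for Pvr over Sirpa, 3.46 for Pvr over Icosl and -0.66 for Sirpa over Icosl.

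Among the other named genes in NP-D@M against NP@M, read totals and voom turned Cd276 (-1.13 and -1.60), Cd47 (-0.73 and -0.74), Cd80 (-1.27 and -1.38) and Skap2 (-0.65 and -0.71), read totals turned Cd28 (-0.016), and quantile normalization turned Cd47 (-0.81) and Lgals3 (-0.88). No paired analysis was possible because the labels give no replicate numbers shared between groups.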
